A study of Mus musculus with 31 samples.

Results

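Glycolysis splits glucose into pyruvate in the cytosol, and lactate dehydrogenase then turns pyruvate into lactate. In pluripotent stem cells the pathway runs at a high rate and supplies both ATP and carbon for growth. The mRNA levels of 10 of its enzymes were followed here in mouse embryonic stem cells (mESCs) with and without the Argonaute protein Ago2. The 10 genes are Hk2, Gpi1, Pfkl, Aldoa, Tpi1, Gapdh, Pgk1, Eno1, Pkm and Ldha. They were chosen by name to cover most steps of the pathway. These genes and the gene lists used further on were chosen with earlier results of these data known. All 10 of 10 were found among the 15034 genes of the RNA-seq table, and each averaged 1 TPM or more, as did the 11287 genes that were tested.

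The RNA-seq holds 12 libraries of 4 genotypes. WT mESCs (2 libraries) have an unedited Ago2 gene. This name was given to E14 cells with a FLAG tag knocked into Trim71 on both alleles. CLIPΔ mESCs (2 libraries) lack, on both alleles, the stretch of the Ago2 3'UTR that the RNA-binding protein Trim71 occupies. Ago2 KO mESCs (4 libraries) carry a deletion of Ago2, and Ago2 KO/CLIPΔ mESCs (4 libraries) carry both changes. The edited lines were grown from single sorted cells, and profiling cultures were kept in a medium with 2 kinase inhibitors and Lif that holds back differentiation. The labels call the libraries biological replicates but do not tie them to clones or cultures, so p-values measure the spread between these libraries. The tag stands in the names that the study's methods give to the edited lines too, while the labels of the RNA-seq libraries do not mention it. The comparisons ask what the Trim71 site in Ago2 mRNA does and whether its effect needs Ago2.

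Ago2 mRNA separated the knockout libraries from the others but not WT from CLIPΔ, so it checks the knockout labels alone. It lay between 20.3 and 28.2 TPM in the 4 WT and CLIPΔ libraries and between 1.51 and 2.88 TPM in the 8 knockout libraries. The mESC marker Pou5f1 lay between 2313 and 3262 TPM over the 12 libraries, while the 3 fibroblast markers in the table summed to at most 3.73 TPM in any library. Each library summed to between 998656 and 999501 TPM, so a level is a share of the measured mRNA and the sequencing depth is unknown. Replicates 3 and 4 of both knockout genotypes stood apart from replicates 1 and 2 over the genes tested. In Ago2 KO, 21.2% of the genes tested were higher in both of replicates 3 and 4 than in both of replicates 1 and 2, and 45.5% were lower. Among Ago2 KO/CLIPΔ libraries these shares were 56.2% and 24.9%.

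Promoters of Hk2, Tpi1, Eno1, Pkm, Ldha and Pgk1 are shown for the motif ACGTG and its variant GCGTG, the core letters bound by hypoxia-inducible factors. Each sequence is the 160 bases before the RefSeq start (GRCm38.p6), written 5′ to 3′ on the gene's strand. Capitals mark each match on either strand, so CACGT and CACGC are matches on the opposite strand. Hk2 and Pgk1 each hold 2 matches to ACGTG in the full window of 250 bases before to 50 after the start. Ldha holds 5, because both of its CACGTG copies match on both strands. Tpi1 holds none.
Hk2, chr6:82774455-82774614, minus strand: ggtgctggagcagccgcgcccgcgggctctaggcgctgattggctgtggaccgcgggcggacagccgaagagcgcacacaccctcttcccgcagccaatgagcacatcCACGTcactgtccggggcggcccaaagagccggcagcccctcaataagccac
Tpi1, chr6:124814159-124814318, minus strand: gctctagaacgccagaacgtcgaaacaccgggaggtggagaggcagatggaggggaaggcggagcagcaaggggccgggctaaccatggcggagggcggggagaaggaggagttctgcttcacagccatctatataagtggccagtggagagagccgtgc
Eno1, second start, chr4:150237037-150237196, plus strand: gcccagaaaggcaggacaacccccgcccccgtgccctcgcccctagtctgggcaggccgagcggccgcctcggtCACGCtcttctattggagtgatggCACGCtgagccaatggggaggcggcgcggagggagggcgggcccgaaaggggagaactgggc
Pkm, second start, chr9:59657067-59657226, plus strand: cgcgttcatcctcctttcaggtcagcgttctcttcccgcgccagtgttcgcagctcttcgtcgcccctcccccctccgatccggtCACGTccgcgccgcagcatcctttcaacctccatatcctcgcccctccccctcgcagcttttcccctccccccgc
Ldha, first start, chr7:46845644-46845803, plus strand: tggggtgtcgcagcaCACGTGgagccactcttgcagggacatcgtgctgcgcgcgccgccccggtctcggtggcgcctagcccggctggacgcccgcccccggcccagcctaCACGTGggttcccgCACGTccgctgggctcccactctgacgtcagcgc
Pgk1, chrX:106186940-106187099, plus strand: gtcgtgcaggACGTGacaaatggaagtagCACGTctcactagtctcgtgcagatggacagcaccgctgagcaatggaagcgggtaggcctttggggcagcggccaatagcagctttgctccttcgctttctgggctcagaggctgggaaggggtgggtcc

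Some members have more than 1 start, and 16 windows of 300 bases covered the 10 genes. ACGTG was found in 7 of the 16 windows, from 6 members, against 19.6% of all 32851 promoters and 26.0% of the 11179 promoters of genes tested. GCGTG was found in 7 windows, from 4 members, against 32.4% and 51.5%. CACGTG was found in 1 window, that of Ldha, against 7.15% and 10.5%. A match is a description of the letters, and no match says only that these letters are not in the window.

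The members differed widely in level. TPM is scaled by transcript length, which allows levels to be set side by side, but near-identical gene copies make the levels of all members except Hk2 and Pfkl uncertain, that of Gapdh most (151 copies, as counted further on). In WT the order of mean levels ran from Aldoa, which splits fructose-1,6-bisphosphate into 2 triose phosphates, at 3802 ± 252 TPM (SD, n = 2), through Tpi1, Pkm, Ldha, Eno1, Gpi1, Hk2, Pfkl and Pgk1 to Gapdh at 72.8 ± 10.7 TPM. Aldoa ranked between 17 and 31 among all genes in every library. Neighbours in this WT order did not overlap in range, apart from Hk2 and Pfkl. In CLIPΔ only Ldha and Eno1 overlapped with each other. In Ago2 KO the overlapping neighbours were Eno1 and Ldha, Gpi1 and Pfkl, and Hk2 and Pgk1, and in Ago2 KO/CLIPΔ they were Hk2 and Pgk1.

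Summed over the 10 genes, the WT libraries held 9174 and 10274 TPM and the CLIPΔ libraries 8261 and 9237 TPM. The sum ranged from 10153 to 13023 TPM in Ago2 KO and from 11061 to 12805 TPM in Ago2 KO/CLIPΔ. The members thus made up between 0.827% and 1.30% of all TPM. Most of this sum is Aldoa, Tpi1 and Pkm, so it says little of the low members.

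**Figure D1:**
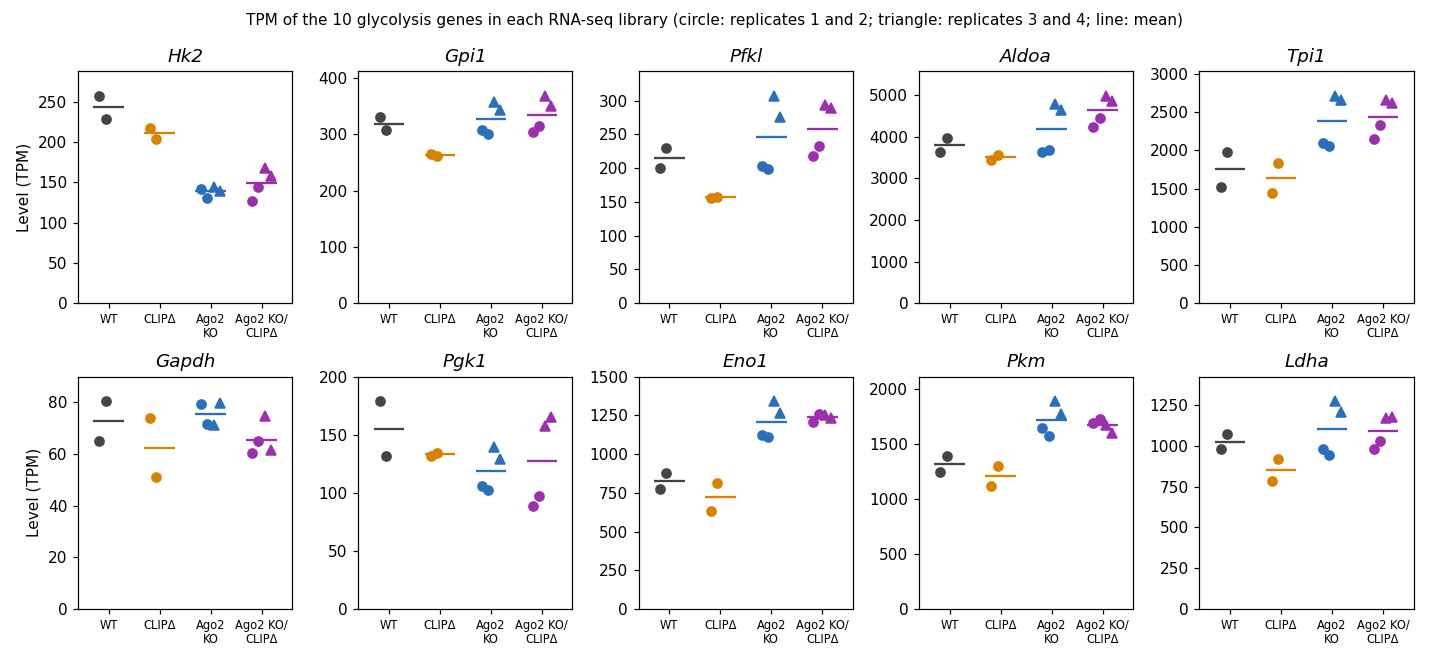
Level in TPM (vertical axis, from 0) of each of the 10 genes in every RNA-seq library, by genotype on the horizontal axis, with circles for replicates 1 and 2, triangles for replicates 3 and 4 and a line at the mean. Hk2 is lower in all 8 knockout libraries (126 to 167 TPM) than in the 4 others (203 to 257 TPM), while Eno1 is higher in all 8 (1110 to 1341 against 635 to 880 TPM).

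In Ago2 KO against WT, Eno1, Tpi1 and Pkm rose and Hk2 fell, and the other 6 members did not pass the test. These 4 of 10 stand against 56.4% of the genes tested that passed, 14.0% higher and 42.4% lower. The median difference over all genes tested was -0.26 on the log2(TPM + 1) scale, and the median over the members was 0.11. Tests were made with limma on log2(TPM + 1), with Benjamini-Hochberg adjustment over all genes tested.

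Hk2 encodes hexokinase 2, which phosphorylates glucose on entry into the cell. Its level was 257 and 229 TPM in the WT libraries, and 142, 131, 144 and 139 TPM in the 4 Ago2 KO libraries. All Ago2 KO libraries were below both WT libraries. On the log2(TPM + 1) scale the difference was -0.80 ± 0.11 (SE), a fold of 0.574, with adjusted p = 0.000189.

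Eno1 encodes enolase 1, which makes phosphoenolpyruvate. Its level was 774 and 880 TPM in WT, and 1121, 1110, 1341 and 1269 TPM in Ago2 KO. The groups did not overlap, and the log2(TPM + 1) difference was 0.55 ± 0.11, with adjusted p = 0.00196.

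Pkm encodes pyruvate kinase, which makes pyruvate and ATP in the last step before lactate. Its level was 1241 and 1388 TPM in WT, and 1647, 1566, 1884 and 1767 TPM in Ago2 KO. This is a log2(TPM + 1) difference of 0.38 ± 0.10, with adjusted p = 0.00688. The table does not separate the 2 splice forms of Pkm. Without WT replicate 1 its call was lost (0.30, adjusted p = 0.0763), and it was lost with replicates 1 and 2 of every genotype alone (0.29, adjusted p = 0.0716).

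Tpi1 encodes triose phosphate isomerase, which interconverts the triose phosphates that aldolase makes. Its level was 1521 and 1979 TPM in WT, and 2097, 2057, 2715 and 2658 TPM in Ago2 KO. The 2 WT libraries lay far apart, and replicates 1 and 2 of Ago2 KO lay just above the higher of them. Its log2(TPM + 1) difference was 0.45 ± 0.16, with adjusted p = 0.0341. The call was lost without WT replicate 1 (0.26, adjusted p = 0.318), without Ago2 KO replicate 3 (0.38, adjusted p = 0.0816) and without Ago2 KO replicate 4 (0.39, adjusted p = 0.0797). It was also lost with replicates 1 and 2 alone (0.26, adjusted p = 0.235), with no filter on low values (adjusted p = 0.0523) and with only WT and Ago2 KO in the fit (adjusted p = 0.0526).

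The members that did not pass in Ago2 KO against WT had differences between -0.38 (Pgk1) and 0.17 (Pfkl). Pgk1 encodes phosphoglycerate kinase 1, which makes ATP. Its level was 179 and 132 TPM in WT, and 106, 103, 139 and 130 TPM in Ago2 KO, with overlapping groups. Pgk1 was lower with replicates 1 and 2 of every genotype alone (-0.56, adjusted p = 0.0245) and with the replicate number as a block (-0.66, adjusted p = 0.00489). These 2 settings are not separate. WT and CLIPΔ have no replicates 3 and 4, so the block sets the knockouts against them through replicates 1 and 2. Pfkl encodes the liver-type subunit of phosphofructokinase, which commits sugar to the pathway. Its level was 200 and 229 TPM in WT, against 203, 198, 307 and 275 TPM in Ago2 KO. With replicates 3 and 4 as the knockout libraries, Pfkl (0.44, adjusted p = 0.0138) and Aldoa (0.31, adjusted p = 0.0228) were higher, and with replicates 1 and 2 alone both differences were below 0 (-0.09 and -0.05, adjusted p = 0.463 and 0.651). Which members passed beyond Hk2 and Eno1 therefore differed between the earlier and the later numbered knockout libraries.

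**Figure D2:**
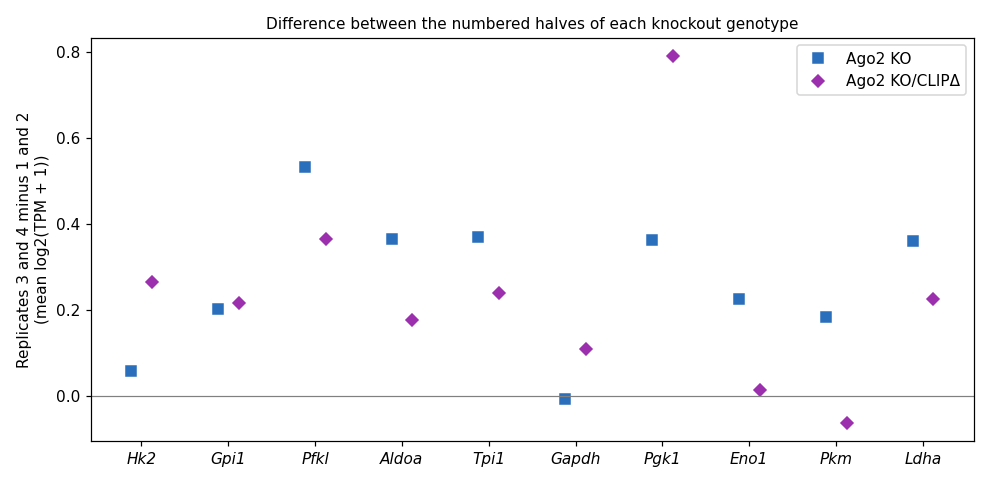
Mean log2(TPM + 1) of replicates 3 and 4 minus that of replicates 1 and 2 (vertical axis) for each of the 10 genes, with squares for Ago2 KO and diamonds for Ago2 KO/CLIPΔ. Values lie between -0.06 and 0.79, with Pgk1 in Ago2 KO/CLIPΔ at 0.79 and Pfkl in Ago2 KO at 0.53.

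Within Ago2 KO, 8 of the 10 members were higher in both of replicates 3 and 4 than in both of replicates 1 and 2, and none was lower. Over all genes tested, 21.2% were higher in this way in Ago2 KO and 45.5% were lower. In Ago2 KO/CLIPΔ 7 of the 10 members were higher and Pkm was lower, against 56.2% and 24.9% of all genes tested. The median of this difference over the members was 0.29 in Ago2 KO and 0.22 in Ago2 KO/CLIPΔ, and over all genes tested it was -0.06 and 0.13. Pgk1 showed it most in Ago2 KO/CLIPΔ, at 88.8 and 97.8 TPM in replicates 1 and 2 and 158 and 166 TPM in replicates 3 and 4. Gapdh did not separate these libraries in either genotype. What sets replicates 3 and 4 apart is not in the labels, and its part in the comparisons was not tested.

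In the CLIPΔ background, Eno1, Pfkl, Tpi1, Pkm, Aldoa, Gpi1 and Ldha rose with the loss of Ago2 and Hk2 fell. Of the 10 members, 8 passed the test in Ago2 KO/CLIPΔ against CLIPΔ, 7 higher and Hk2 lower, against 54.9% of the genes tested that passed, 12.8% higher and 42.1% lower. The median difference was 0.38 over the members and -0.25 over all genes tested. It shares no library with Ago2 KO against WT, but both were fitted together.

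Pfkl stood at 156 and 158 TPM in CLIPΔ, and at 218, 233, 293 and 289 TPM in Ago2 KO/CLIPΔ. No libraries overlapped. The difference in log2(TPM + 1) was 0.71 ± 0.18, a fold of 1.63, with adjusted p = 0.00682.

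Eno1 stood at 635 and 813 TPM in CLIPΔ, and at 1207, 1257, 1253 and 1237 TPM in Ago2 KO/CLIPΔ. The difference in log2(TPM + 1) was 0.78 ± 0.11, a fold of 1.72, with adjusted p = 0.000322. The 4 knockout libraries lay close together, with a coefficient of variation of 1.81%.

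Tpi1 stood at 1438 and 1833 TPM in CLIPΔ, and at 2147, 2330, 2659 and 2624 TPM in Ago2 KO/CLIPΔ, with a difference of 0.58 ± 0.16 (adjusted p = 0.0101). Pkm stood at 1114 and 1301 TPM, and at 1684, 1728, 1673 and 1597 TPM, with a difference of 0.47 ± 0.10 (adjusted p = 0.00233). Both were higher in every knockout library than in either CLIPΔ library.

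Aldoa stood at 3441 and 3565 TPM in CLIPΔ, and at 4247, 4462, 4988 and 4851 TPM in Ago2 KO/CLIPΔ, with a difference of 0.40 ± 0.13 (adjusted p = 0.0201). Gpi1 encodes glucose-6-phosphate isomerase, the enzyme of the second step. It stood at 266 and 262 TPM in CLIPΔ, and at 304, 316, 369 and 351 TPM in Ago2 KO/CLIPΔ, with a difference of 0.34 ± 0.10 (adjusted p = 0.0156). Both members were clear of the CLIPΔ libraries in all 4 knockout libraries.

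Ldha encodes the A subunit of lactate dehydrogenase, which regenerates NAD+. It stood at 787 and 916 TPM in CLIPΔ, and at 978, 1027, 1170 and 1176 TPM in Ago2 KO/CLIPΔ. The difference in log2(TPM + 1) was 0.35 ± 0.14 (adjusted p = 0.0444), close to the threshold. Hk2 stood at 218 and 203 TPM, and at 126, 145, 167 and 158 TPM, with a difference of -0.50 ± 0.11 (adjusted p = 0.00275). Hk2 was thus lower in both comparisons in which Ago2 was removed.

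Gapdh and Pgk1 did not pass in this comparison. Gapdh, the enzyme that makes NADH in the pathway, stood at 74.0 and 51.0 TPM in CLIPΔ, and at 60.6, 65.2, 74.7 and 61.6 TPM in Ago2 KO/CLIPΔ. Pgk1 stood at 132 and 135 TPM, and at 88.8, 97.8, 158 and 166 TPM. Their 95% intervals ran from -0.23 to 0.40 and from -0.65 to 0.42. Pgk1 was lower with replicates 1 and 2 alone (-0.51, adjusted p = 0.0261) and with the replicate block (-0.41, adjusted p = 0.0436). Here too the 2 settings are not separate, as the block rests on the same replicates 1 and 2.

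The count of 8 depends on the libraries used. With replicates 1 and 2 of every genotype alone it was 6, 4 higher and 2 lower, since Gpi1 (0.23, adjusted p = 0.0596), Tpi1 (0.46, adjusted p = 0.0534) and Ldha (0.24, adjusted p = 0.0989) were lost and Pgk1 was added. With replicates 3 and 4 as the knockout libraries it was 8, 7 higher and 1 lower. Without CLIPΔ replicate 1 it was 4, since Gpi1 (adjusted p = 0.0679), Aldoa (difference 0.38), Tpi1 (adjusted p = 0.135) and Ldha (adjusted p = 0.293) were lost. Without CLIPΔ replicate 2 it was 6, since Gpi1 (adjusted p = 0.0613) and Aldoa (adjusted p = 0.0540) were lost. Ldha was also lost without each of Ago2 KO/CLIPΔ replicates 2, 3 and 4 (adjusted p between 0.0540 and 0.0898), where the count was 7, with no filter on low values (adjusted p = 0.0573) and with the replicate block (adjusted p = 0.0735).

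**Figure D3:**
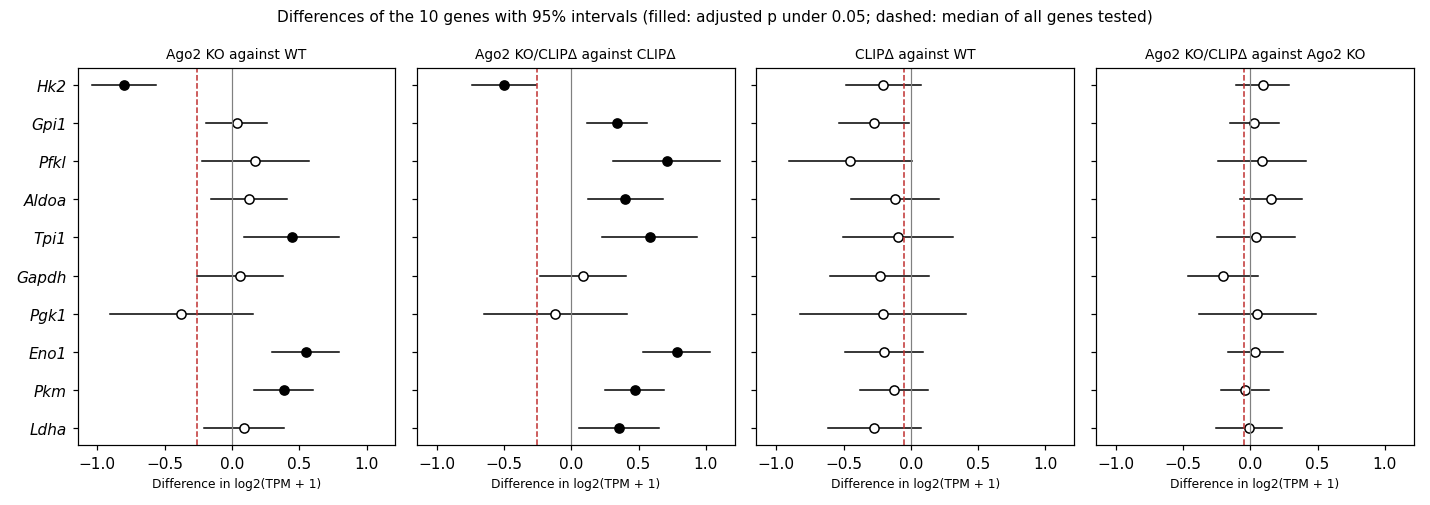
Difference in log2(TPM + 1) (horizontal axis) of each gene in 4 comparisons, with 95% intervals, filled points at adjusted p under 0.05 and a dashed line at the median of all genes tested. Eno1, Tpi1 and Pkm lie above 0 and Hk2 below 0 in both comparisons that remove Ago2, and no point is filled in the 2 comparisons of CLIPΔ.

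Scaling bears on these directions. With each library centred on its median gene, the median difference over all genes tested moved from -0.26 to 0.09 in Ago2 KO against WT and from -0.25 to 0.08 in Ago2 KO/CLIPΔ against CLIPΔ. Of all calls in Ago2 KO against WT, 1579 of 6364 were higher without centring and 3559 of 5930 with it. The shares in Ago2 KO/CLIPΔ against CLIPΔ were 23.3% and 59.0%. Centred in this way, 9 members passed in Ago2 KO against WT, 8 of them higher and Hk2 lower (-0.45, adjusted p = 0.00215), and 8 passed in Ago2 KO/CLIPΔ against CLIPΔ, all higher. Hk2 was then no longer called in the latter (-0.17, adjusted p = 0.142). Eno1, Tpi1 and Pkm were higher and called under both scalings in both comparisons.

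With Ago2 present, the deletion of the Trim71 site gave no called change of a member without a replicate block and 1 with it. In CLIPΔ against WT, limma called 0 of 10 members, against 2.27% of the genes tested, and 1 member had an unadjusted p under 0.05. With the replicate number as a block Pfkl was called lower (-0.45, adjusted p = 0.0431). All 10 differences were below 0, between -0.45 (Pfkl) and -0.10 (Tpi1), with a median of -0.20 against -0.05 over all genes tested. The groups of 2 libraries did not overlap for Hk2, Gpi1, Pfkl, Aldoa and Ldha, all lower in CLIPΔ, and 19.5% of the genes tested were apart in that direction. The interval of Pfkl ran from -0.91 to 0.01 and that of Gpi1 from -0.53 to -0.01, so falls within these bounds were not distinguishable from none at 2 libraries a group, apart from that of Gpi1 before adjustment.

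The same deletion was then compared without Ago2. In Ago2 KO/CLIPΔ against Ago2 KO, limma again called 0 of 10 members, against 0.877% of the genes tested, and 0 had an unadjusted p under 0.05. Differences ran from -0.20 (Gapdh) to 0.16 (Aldoa), the 2 groups overlapped for every member, and the interval of Ldha ran from -0.25 to 0.23. With the replicate number as a block, 180 genes passed in place of 99, and still 0 members.

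The difference between the 2 effects of CLIPΔ, with and without Ago2, was tested as an interaction. limma called 0 of 10 members, against 0.647% of the genes tested, and 0 had an unadjusted p under 0.05. All 10 values were above 0, between 0.03 (Gapdh) and 0.53 (Pfkl, interval -0.03 to 1.10). The calls of 4 and 8 members in the 2 comparisons of Ago2 loss are therefore not shown to differ for any member.

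The profiles of the members over the 12 libraries were described by correlation. Gpi1, Pfkl, Aldoa, Tpi1 and Ldha each had r above 0.8 with the mean profile of the other 9, with Pfkl at 0.981. Eno1 and Pkm followed at 0.699 and 0.667, Gapdh and Pgk1 lay at 0.211 and 0.167, and Hk2 at -0.479. Eno1 and Pkm were most alike (r = 0.984), and Hk2 and Pkm least (r = -0.841). Of the 11277 other genes tested, Sirt2 (r = 0.966), Aldh18a1 (0.948), Igsf23 (0.941), Tulp1 (0.939) and Coro7 (0.939) were most like the members' mean profile. These values share genotype and library among their points and carry no test.

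Enzymes and isozymes of glycolysis outside the 10 changed in both directions. Over all genes tested 14.0% rose and 42.4% fell in Ago2 KO against WT, and 12.8% and 42.1% in Ago2 KO/CLIPΔ against CLIPΔ. Of the 18 enzymes and isozymes tested, 3 rose and 6 fell in Ago2 KO against WT, with a median of -0.28, near that of all genes tested. With median centring 5 rose and 2 fell, and the median was 0.07, while 2 rose and 7 fell with replicates 1 and 2 and 2 rose and 5 fell with replicates 3 and 4 of the knockout. The rises were led by Eno3, the muscle-type enolase (0.58 ± 0.18, adjusted p = 0.0170), and Pfkm, the muscle-type phosphofructokinase (0.56 ± 0.09, adjusted p = 0.000476). The falls were led by Pfkfb3 (-1.47 ± 0.24, adjusted p = 0.000437) and Pfkfb2 (-0.96 ± 0.21, adjusted p = 0.00243), which make the phosphofructokinase activator fructose-2,6-bisphosphate. Pfkfb3 is low, between 1.67 and 5.94 TPM in the WT and CLIPΔ libraries and between 0.424 and 0.960 TPM in the knockout libraries. Within the CLIPΔ background, 2 rose, Eno3 (0.61 ± 0.18, adjusted p = 0.0136) and Pgam1 (0.39 ± 0.08, adjusted p = 0.00214), and 6 fell, led again by Pfkfb3 (-1.14 ± 0.24, adjusted p = 0.00200) and Pfkfb2 (-1.04 ± 0.21, adjusted p = 0.00173). In this comparison 5 rose and 4 fell with median centring, 1 rose and 7 fell with replicates 1 and 2, and 3 rose and 4 fell with replicates 3 and 4 of the knockout. Pgam1 encodes the phosphoglycerate mutase of the step between Pgk1 and Eno1. It lay between 158 and 183 TPM in the WT and CLIPΔ libraries and between 209 and 243 TPM in the knockout libraries.

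Of 7 carriers of glucose and lactate, 2 rose and 2 fell in each comparison of Ago2 loss. Over all genes tested 14.0% and 12.8% rose, and 42.4% and 42.1% fell. The counts of carriers changed with the scaling and the libraries. With median centring 3 rose and 0 fell by limma in each (0 fell at an unadjusted p under 0.05). With replicates 1 and 2 alone 0 rose (0 unadjusted) and 4 fell in Ago2 KO against WT, so that the rises named for it here were lost, and 1 rose and 4 fell in Ago2 KO/CLIPΔ against CLIPΔ. With replicates 3 and 4 of the knockout 2 rose and 2 fell, and 1 rose and 1 fell. The glucose carrier Slc2a1 fell in both (-0.54 ± 0.09, adjusted p = 0.000662, and -0.41 ± 0.09, adjusted p = 0.00312), as did the lactate carrier Slc16a1 (-0.30 ± 0.09, adjusted p = 0.0152, and -0.30 ± 0.09, adjusted p = 0.0164). With median centring neither was called, and Slc16a1 turned sign (0.05 and 0.04, adjusted p = 0.637 and 0.731). Slc2a8 rose in both (0.76 ± 0.23, adjusted p = 0.0162, and 1.03 ± 0.23, adjusted p = 0.00355). The other rise was Bsg, a chaperone of the lactate carriers, in Ago2 KO against WT (0.21 ± 0.08, adjusted p = 0.0359) and Slc2a4 in Ago2 KO/CLIPΔ against CLIPΔ (0.61 ± 0.19, adjusted p = 0.0168). Slc2a4 is low, between 0.869 and 2.83 TPM in the WT and CLIPΔ libraries and between 2.40 and 2.97 TPM in the knockout libraries.

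Of 14 genes of pyruvate use in mitochondria, 2 rose and 6 fell in Ago2 KO against WT, and 2 rose and 8 fell in Ago2 KO/CLIPΔ against CLIPΔ. Over all genes tested 14.0% were higher and 42.4% lower in the first comparison, which these counts match closely, and 12.8% and 42.1% in the second. With replicates 1 and 2 alone 4 and 7 fell, and with replicates 3 and 4 of the knockout 4 and 4. Pyruvate carboxylase, Pcx, rose in both (0.74 ± 0.12, adjusted p = 0.000388, and 0.87 ± 0.12, adjusted p = 0.000198), as did the pyruvate dehydrogenase kinase Pdk2 (0.71 ± 0.11 and 0.42 ± 0.11). The mitochondrial pyruvate carrier subunit Mpc1 fell in both (-0.74 ± 0.22 and -0.92 ± 0.22), the first of these not with median centring (adjusted p = 0.109). With that scaling 5 of the 14 rose and 0 fell by limma in Ago2 KO against WT (1 fell at an unadjusted p under 0.05), and 4 rose and 4 fell in Ago2 KO/CLIPΔ against CLIPΔ. In the pentose phosphate branch 1 of 7 rose and 1 fell in the first comparison, and 3 rose and 3 fell in the second, with Pgls up (0.72 ± 0.16 and 0.77 ± 0.16) and Rpia down (-0.64 ± 0.12 and -0.58 ± 0.12, the second not with median centring, adjusted p = 0.0570) in both. Centred, 3 of the 7 rose and 1 fell in each. With replicates 1 and 2 alone 0 rose (1 unadjusted) and 1 fell in the first, and 1 rose and 2 fell in the second, while with replicates 3 and 4 of the knockout 1 rose and 1 fell, and 1 rose and 3 fell. Of 3 tested genes of gluconeogenesis, Fbp2 alone was called, higher in Ago2 KO against WT (0.41 ± 0.14), lower in Ago2 KO/CLIPΔ against CLIPΔ (-0.71 ± 0.14), higher in CLIPΔ against WT (0.73 ± 0.16) and below 0 in the interaction (-1.12 ± 0.20, adjusted p = 0.0249). Fbp2 is a low gene, between 0.572 and 2.22 TPM over the 12 libraries. In Ago2 KO against WT limma called 0 of the 3 with replicates 1 and 2 alone and 0 with replicates 3 and 4 of the knockout (0 unadjusted in each).

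Genes that hypoxia induces but that are not glycolysis enzymes fell with the loss of Ago2. Of 21 tested, 17 fell and 0 rose in Ago2 KO against WT, and 13 fell and 0 rose in Ago2 KO/CLIPΔ against CLIPΔ, with medians of -0.85 and -0.69. Over all genes tested 42.4% and 42.1% fell, and 14.0% and 12.8% rose. No member of the list rose at an unadjusted p under 0.05 in either. With median centring 9 fell and 1 rose, and 6 fell and 0 rose, with medians of -0.50 and -0.35. With replicates 1 and 2 alone 16 and 15 fell, and with replicates 3 and 4 as the knockout libraries 16 and 7. Bnip3, a mitophagy receptor, fell by 2.04 ± 0.61 and 1.67 ± 0.61 on the log2 scale, the latter not with median centring (-1.34, adjusted p = 0.0745), and the stress gene Ddit4 lay between 385 and 676 TPM in the WT and CLIPΔ libraries and between 131 and 192 TPM in the knockout libraries. Of the 21, 19 were higher in both of replicates 3 and 4 of Ago2 KO/CLIPΔ than in both of replicates 1 and 2, as Bnip3 was (1.18 and 1.56 against 8.79 and 9.60 TPM), and in Ago2 KO 12 of 21 were. The shares of all genes tested that were higher in this way were 56.2% and 21.2%. Of 19 tested regulators of glycolysis, 2 rose and 4 fell in Ago2 KO against WT, and 1 rose and 5 fell in Ago2 KO/CLIPΔ against CLIPΔ. These falls were fewer than the 42.4% and 42.1% of all genes tested. Among the regulators, the deacetylase Sirt6 was higher in both (0.94 ± 0.15 and 0.64 ± 0.15), and the factor Sp1 was lower in both (-0.83 ± 0.19 and -0.83 ± 0.19). With median centring 5 of the 19 rose and 1 fell, and 9 rose and 2 fell. With replicates 1 and 2 alone 2 rose and 2 fell, and 2 rose and 4 fell, and with replicates 3 and 4 of the knockout 1 rose and 5 fell, and 0 rose (1 unadjusted) and 2 fell. In CLIPΔ against WT, 3 genes of these related lists were called, all higher: Mlxipl, a glucose-responsive transcription factor (1.40 ± 0.19, adjusted p = 0.00275), Pdp2, a pyruvate dehydrogenase phosphatase (0.66 ± 0.14, adjusted p = 0.0280), and Fbp2 as given above (adjusted p = 0.0410). Mlxipl was lower in both comparisons of Ago2 loss (-0.54 ± 0.17, adjusted p = 0.0160, and -1.69 ± 0.17, adjusted p = 3.44e-05). The first of these falls was not called with median centring (adjusted p = 0.363). Mlxipl is low, between 0.879 and 6.18 TPM in the WT and CLIPΔ libraries and between 0.501 and 0.957 TPM in the knockout libraries.

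**Figure D4:**
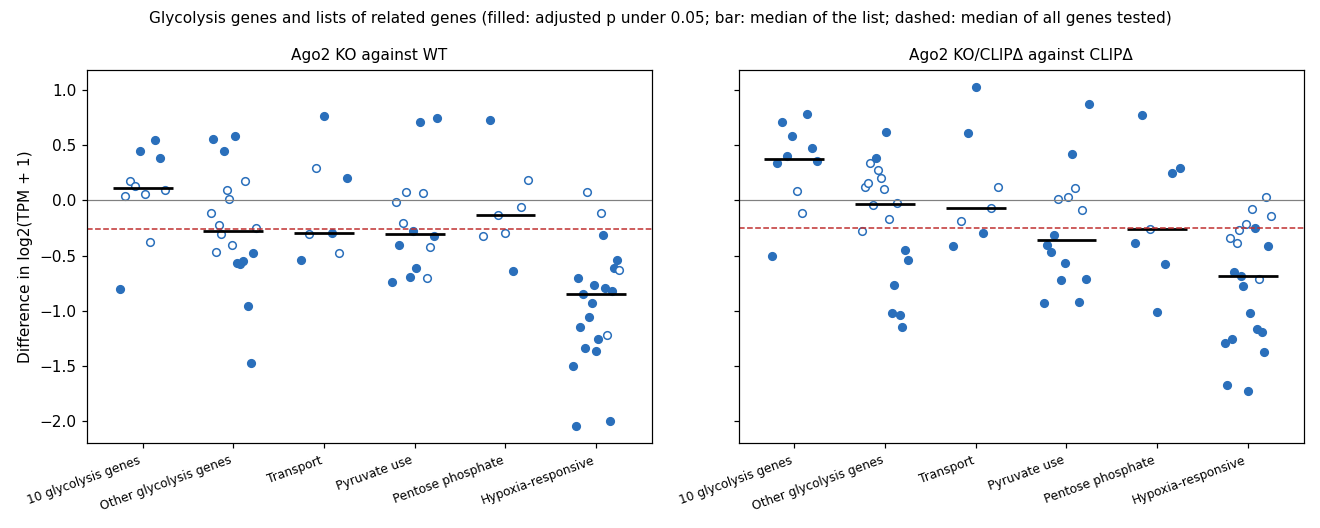
Difference in log2(TPM + 1) (vertical axis) of the 10 glycolysis genes and of 5 lists of related genes, in both comparisons that remove Ago2, with filled points at adjusted p under 0.05, a bar at each list's median and a dashed line at the median of all genes tested. The bar of the 10 genes lies at 0.11 and 0.38, and that of the hypoxia-responsive genes at -0.85 and -0.69.

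Marker genes of other states were checked beside these results. Of 13 tested mESC markers, 3 rose and 3 fell in each comparison of Ago2 loss. Over all genes tested 14.0% and 12.8% rose, and 42.4% and 42.1% fell. Utf1 (1.19 ± 0.23 and 1.24 ± 0.23) and Klf2 (0.66 ± 0.14 and 0.50 ± 0.14) rose in both. Dppa3 fell in both (-2.94 ± 0.32 and -5.87 ± 0.32) and rose in CLIPΔ against WT (2.89 ± 0.37, adjusted p = 0.00176). Klf4 fell in CLIPΔ against WT (-0.575 ± 0.11, adjusted p = 0.0183). Tbx3 fell in Ago2 KO against WT (-0.64 ± 0.21, adjusted p = 0.0223). Nanog fell in Ago2 KO/CLIPΔ against CLIPΔ (-0.59 ± 0.19, adjusted p = 0.0219). The falls of Tbx3 and Nanog were not called with median centring (adjusted p = 0.257 and 0.311). In the comparisons of Ago2 loss, 4 of the 13 rose and 1 fell with median centring, and 5 rose and 1 fell. Of 4 markers of primed pluripotency, 0 were called by limma in Ago2 KO against WT (1 was lower at an unadjusted p under 0.05) and 1 rose in Ago2 KO/CLIPΔ against CLIPΔ. Over the 12 libraries the 6 endoderm markers in the table summed to between 2.92 and 7.89 TPM. The 5 mesoderm markers summed to between 38.9 and 71.4 TPM and the 3 neuroectoderm markers to between 114 and 176 TPM. The mesoderm and neuroectoderm sums hide changes of single genes. The neuroectoderm marker Tubb3 rose in both comparisons of Ago2 loss (folds of 3.1 and 1.9), while Nes of the same list fell (0.41 and 0.34). The mesoderm marker T fell in Ago2 KO against WT (fold of 0.42). Eomes of that list rose in Ago2 KO/CLIPΔ against CLIPΔ (fold of 1.54). These changes were called with and without median centring. The part of the markers in the members' differences was not tested. In bulk RNA fewer cells of a type and less RNA per cell cannot be told apart.

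Near-identical gene copies limit the values of several members. An annotated copy was counted where it matched at least 50% of a member's coding sequence at 90% identity or more. Gapdh had 151 such copies, Ldha 9, Eno1 6, Aldoa 4, Pkm 4, Pgk1 2, and Gpi1 and Tpi1 1 each, while Hk2 and Pfkl had none. How reads that match several places were treated is not given in the sources used here, so the levels of all members but Hk2 and Pfkl are uncertain to that extent. The Aldoa copy Aldoart1 (93.6% identity) rose as Aldoa did in Ago2 KO/CLIPΔ against CLIPΔ (0.59 ± 0.11, adjusted p = 0.00121), and rose in Ago2 KO against WT (0.48 ± 0.11, adjusted p = 0.00356), where Aldoa did not pass. The Gapdh copy Gm12070 (99.9% identity), chosen after its values were seen, lay between 1.61 and 2.61 TPM in the WT and CLIPΔ libraries and between 6.60 and 12.7 TPM in the knockout libraries.

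The members were also examined for binding by Trim71 and for sites of let-7, the microRNA family at the centre of the study. CLIP-seq, which maps where a protein contacts RNA in cells, was given as 498 peaks shared by 2 Trim71 immunoprecipitations in mESCs that carry FLAG-tagged Trim71. The peaks were annotated to 439 genes, beside 15034 genes in the RNA-seq table, and the overlap of these was not counted. Among the 498 peaks 1 lay in a member, which is not read as many or few. It was in Pkm, at chr9:59665891-59665896 on the plus strand (mm10), in the coding sequence of exon 3, with 1521 reads and rank 325 by reads. The list does not say whether its positions count from 0 or 1. In all, 28 peaks lay in coding sequence. The peak and 30 bases on either side are shown, with the peak in capitals.
Pkm: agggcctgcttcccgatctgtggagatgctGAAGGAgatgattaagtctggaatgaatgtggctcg

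The seed of let-7 (bases 2 to 8, in capitals) and the 8-base site searched, CTACCTCA, are taken from the RefSeq mature sequence of let-7a.
mmu-let-7a-5p: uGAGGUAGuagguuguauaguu

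That site was found in the annotated 3'UTR of 0 of 10 members, against 386 of 10805 tested genes with a 3'UTR (3.57%). At so low a share, 0 of 10 does not set the members apart from other genes. The shorter core of the site, TACCTC, was found 2 times in the 3'UTR of Hk2 and in no other member. Its share over all genes was not counted. Of the tested genes of the related and marker lists, 5 held the longer site CTACCTCA in the 3'UTR. They were the glucose carrier Slc2a3, the regulators Hif1an, Esrrb and Lin28a, and the mESC marker Fgf4. How many list genes were searched was not counted, so no share is given. Trim71 peaks in a 3'UTR were listed for Slc2a1 (5907 and 7 reads), Pdha1 (1781), Fgf4 (11845 and 5337), Tfcp2l1 (1474) and Klf4 (7) of these lists. Zfp42 held a peak in an intron (1069 reads).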

How the data were processed

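RNA-seq of 12 mESC libraries and Trim71 CLIP-seq peaks were used, and small RNA-seq was not. Per the study's methods, HISAT2 (2.1.0) placed the reads on mm10 and HTSeq counted them over 1 transcript, the longest, per gene. The authors converted these and deposited TPM, counts scaled by length and library. The deposited peak list gives read counts per peak, pooled over 2 immunoprecipitations. Columns coded d3 were read as CLIPΔ, by elimination. Here log2(TPM + 1) of the 11287 genes that averaged 1 TPM or more was fitted with limma (3.58.1, R 4.3.3) as 4 genotype means with a trended prior, adjusted p under 0.05. TPM keeps no depth, so no count test was run. The script was tested on simulated data. Members and lists were chosen with earlier results of these data known. Genes named are the 10 members, Ago2 and Trim71, and from most lists some of the 2 largest rises and 2 largest falls that passed. Also named are the 5 genes most like the members' profile, list genes with a let-7 site or a Trim71 peak, Pou5f1 and Gm12070. Not every gene that passed in a list is named. Trim71 lay between 22.5 and 34.9 TPM. Same-numbered Ago2 KO and Ago2 KO/CLIPΔ libraries deviated together (r from 0.320 to 0.433 in 4 pairs), and so did differently numbered libraries within replicates 1 and 2 or 3 and 4 (0.335 to 0.467), so the number is not told apart from that split. The fit reported has no block. WT and CLIPΔ have 2 libraries each, so their 2 same-numbered pairs give a single value (r = 0.715), too little to judge pairing. The fit reported leaves this likeness of same-numbered WT and CLIPΔ libraries out. Sequences are RefSeq and GENCODE M21 on GRCm38, the build of mm10. Alternatives were the replicate block, a pseudocount of 0.1, no filter, median centring, the 2 genotypes alone, replicates 1 and 2 or 3 and 4 alone, and leaving out each library.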

Additional observations from a re-analysis of the deposited data

How the results depend on the processing

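TPM gives no depth, and groups of 2 libraries limit every comparison with WT or CLIPΔ. Hk2 and Eno1 in Ago2 KO against WT, and Eno1, Pkm and Pfkl in Ago2 KO/CLIPΔ against CLIPΔ, kept direction and call under all alternatives run. The cause of the changes below was not tested. In Ago2 KO against WT, 9 members passed with median centring in place of 4, and 2 to 4 when 1 library was left out (2 without WT replicate 1). The count in Ago2 KO/CLIPΔ against CLIPΔ was 4 to 8 when 1 library was left out. With the replicate block 1 member, Pfkl, passed in CLIPΔ against WT (-0.45, adjusted p = 0.0431), and 5 in Ago2 KO against WT, with Pgk1 added (-0.66, adjusted p = 0.00489). The block in Ago2 KO/CLIPΔ against CLIPΔ kept the count at 8, with Pgk1 called (-0.41, adjusted p = 0.0436) and Ldha not (adjusted p = 0.0735). The block changed no other member's call.

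Counts of genes in CLIPΔ against WT were 256, and 510 with no filter, 92 with replicates 1 and 2, 109 with replicates 3 and 4, 105 to 397 without 1 library and 0 by limma with the 2 genotypes alone (586 at an unadjusted p under 0.05). For Ago2 KO/CLIPΔ against Ago2 KO they were 99, and 180 with the block, 364 with the 2 genotypes alone, 21 to 161 without 1 library, and 0 by limma with replicates 1 and 2 or 3 and 4 (1436 and 1362 unadjusted). In the interaction they were 73, and 168 with no filter, 12 with replicates 3 and 4, 51 to 144 without 1 library, and 0 by limma with replicates 1 and 2 (804 unadjusted). In Ago2 KO against WT they were 4195 to 6653 without 1 library, and in Ago2 KO/CLIPΔ against CLIPΔ 3692 to 6633, and 4033 with replicates 3 and 4.

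Differences of members turned sign as follows, none of them called. Without 1 library CLIPΔ against WT gave Tpi1 from -0.29 to 0.095, Gapdh from -0.50 to 0.032 and Pgk1 from -0.42 to 0.012. In Ago2 KO against WT, Gpi1 was -0.071, Pfkl -0.052, Aldoa -0.0066 and Ldha -0.056 with the replicate block and Gpi1 was -0.067, Pfkl -0.094, Aldoa -0.054 and Ldha -0.089 with replicates 1 and 2. Without 1 library Ago2 KO against WT gave Gpi1 from -0.020 to 0.089 and Gapdh from -0.090 to 0.21. In Ago2 KO/CLIPΔ against Ago2 KO, Pkm was 0.0041 and Ldha 0.031 with median centring, Hk2 was -0.010, Pgk1 -0.16, Pkm 0.087 and Ldha 0.058 with replicates 1 and 2 and Tpi1 was -0.024 and Eno1 -0.067 with replicates 3 and 4. Without 1 library Ago2 KO/CLIPΔ against Ago2 KO gave Gpi1 from -0.017 to 0.076, Pfkl from -0.0092 to 0.20, Tpi1 from -0.025 to 0.11, Pgk1 from -0.092 to 0.21, Eno1 from -0.0021 to 0.089, Pkm from -0.079 to 0.010 and Ldha from -0.079 to 0.064. Pgk1 in Ago2 KO/CLIPΔ against CLIPΔ was 0.21 with median centring and 0.28 with replicates 3 and 4. Without 1 library Ago2 KO/CLIPΔ against CLIPΔ gave Gapdh from -0.18 to 0.35 and Pgk1 from -0.26 to 0.035. In the interaction, Gapdh was -0.030 with replicates 1 and 2 and Pkm was -0.034 with replicates 3 and 4. Without 1 library the interaction gave Tpi1 from -0.054 to 0.33, Gapdh from -0.24 to 0.29 and Pkm from -0.023 to 0.20.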
